A study of Homo sapiens with 23 samples.

Results

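The start sites of 6 genes were examined in peak lists of chromatin immunoprecipitation followed by sequencing (ChIP-seq) from NCI-H23, a human lung cancer line of the non-small cell kind. ACTB and GAPDH represented housekeeping genes, which nearly all cells transcribe. HBB, ALB, INS and MYOD1 represented genes of other lineages. These 6 were chosen by name out of 20052 protein-coding genes in the RefSeq gene table. A target was counted at a start site where a peak lay within 1 kb of it in hg19, the build given in the submitters' processing notes. The start sites were position 5570232 of chromosome 7 for ACTB, 6643585 of chromosome 12 for GAPDH, 5248301 of chromosome 11 for HBB, 74269972 of chromosome 4 for ALB, 2182439 of chromosome 11 for INS and 17741110 of chromosome 11 for MYOD1.

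The series held 23 samples: 22 immunoprecipitated libraries, made of 11 targets with 2 replicates each, and 1 input library, for which no list was used here. The targets were the acetylation marks H4K5acK8ac (histone H4 acetylated on both lysine 5 and lysine 8), H4K5ac, H4K8ac, H4K12ac and H3K27ac, the methylation marks H3K4me3, H3K4me1, H3K36me3, H3K27me3 and H3K9me3, and BRD2, a BET protein that recognises acetylated histones through its bromodomains. JQ1, a compound that blocks BET bromodomains, and DMSO are both named in the protocol text, and which of them a library received is not given by any label. The labels do not say whether replicates were separate cultures. Neither RNA nor DNA methylation was measured, so whether a gene was silent is not known from these data, and the kind of silencing is described only by the repressive marks. The cell type label was not checked against lung marker genes.

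ACTB encodes cytoplasmic beta-actin and GAPDH encodes a glycolytic enzyme. HBB encodes the beta chain of adult haemoglobin and belongs to red cell precursors, ALB encodes serum albumin and belongs to hepatocytes, INS encodes insulin and belongs to pancreatic beta cells, and MYOD1 encodes a transcription factor that specifies skeletal muscle. As general background, active promoters carry H3K4me3 and acetylation around the start, H3K4me1 on their flanks and at enhancers, and H3K36me3 along the transcribed body. H3K27me3 is placed by Polycomb repressive complex 2, often at the CpG-rich promoters of developmental regulators, where it can occur together with H3K4me3 in a state called bivalent. H3K9me3 marks heterochromatin. Inactive genes with CpG-poor promoters can lack both repressive marks.

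Promoter sequences could be compared for some of these genes, at the starts that the promoter table gives. The RefSeq promoter table of build GRCh38.p14 held 3 of the 6 genes, as the 250 bases before and 50 bases after the table's start. They are printed 5′ to 3′ in the direction of transcription, with every CpG dinucleotide in capitals; GAPDH is chr12:6535014-6535313 on the plus strand, ALB chr4:73404037-73404336 on the plus strand and INS chr11:2161160-2161459 on the minus strand. These positions are of GRCh38.p14 and not of hg19.
GAPDH: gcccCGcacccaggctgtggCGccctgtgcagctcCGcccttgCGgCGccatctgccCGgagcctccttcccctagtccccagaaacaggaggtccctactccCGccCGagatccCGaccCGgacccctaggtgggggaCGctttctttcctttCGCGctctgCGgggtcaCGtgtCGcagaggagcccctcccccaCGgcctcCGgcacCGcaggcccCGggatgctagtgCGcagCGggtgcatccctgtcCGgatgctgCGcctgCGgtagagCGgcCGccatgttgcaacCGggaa
ALB: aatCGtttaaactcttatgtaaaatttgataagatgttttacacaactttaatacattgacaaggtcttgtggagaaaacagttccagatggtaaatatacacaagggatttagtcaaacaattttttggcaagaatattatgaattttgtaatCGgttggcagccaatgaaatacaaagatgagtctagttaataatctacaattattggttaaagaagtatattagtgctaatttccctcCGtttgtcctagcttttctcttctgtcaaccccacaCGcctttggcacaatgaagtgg
INS: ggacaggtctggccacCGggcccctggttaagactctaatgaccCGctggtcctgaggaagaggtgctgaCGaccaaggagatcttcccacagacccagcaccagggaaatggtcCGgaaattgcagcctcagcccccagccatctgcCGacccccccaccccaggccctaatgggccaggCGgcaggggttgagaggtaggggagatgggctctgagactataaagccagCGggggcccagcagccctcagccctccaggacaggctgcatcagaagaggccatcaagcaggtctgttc
GAPDH held 28 CpG dinucleotides, an observed over expected CpG ratio of 0.761 and a G+C content of 70.7%. The GAPDH start of the table lay 747 bp inside the gene's first base in the same build, so this sequence is of a later start of the gene. ALB held 4 CpG with a ratio of 0.481 and a G+C content of 33.3%, and INS held 7 with a ratio of 0.235 and a G+C content of 63%. The median over 22198 promoters of protein-coding genes in the table was 21 CpG, a ratio of 0.737 and a G+C content of 62.3%. The sequence at this later GAPDH start thus lay above the median in CpG number, and those of ALB and INS lay below it. The motif GGGCGG was found in GAPDH and is in 56.3% of the 22198 promoters, CCAAT was found in ALB and is in 34.7%, and TATAAA was found in INS and is in 9.47%, each searched on both strands. None of the 3 sequences held a second of these motifs. A match is only a match of letters.

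At the housekeeping genes, all 8 targets linked with activity (the 5 acetylation marks, H3K4me3, H3K4me1 and BRD2) were called in both replicate lists. ACTB had 9 of the 11 targets, with H3K36me3 as the ninth, and GAPDH had 8. At the other-lineage genes the number was 4 for MYOD1, 1 for HBB, and 0 for ALB and INS. MYOD1 had H3K4me3, H3K4me1, H4K12ac and H3K27me3, and HBB had H3K27me3. The H4K12ac peaks at MYOD1 were weak and shared 0 bp between the replicates. H3K9me3 was called at none of the 6 start sites in either list. By repressive mark, MYOD1 carried H3K27me3 with H3K4me3, HBB carried H3K27me3 alone, and ALB and INS carried neither H3K27me3 nor H3K9me3.

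These counts were read against the whole genome cut into 1545923 tiles of the same length as the window. The share of tiles with a peak in both lists was 4.34% for H4K5acK8ac, 5.19% for H4K5ac, 4.66% for H4K8ac, 3.50% for H4K12ac, 5.40% for H3K27ac, 2.58% for H3K4me3 and 8.41% for H3K4me1. It was 1.13% for BRD2, 9.67% for H3K36me3, 9.74% for H3K27me3 and 10.1% for H3K9me3. A peak in at least 1 list was more common, from 2.75% of tiles for H3K4me3 to 17.5% for H3K27me3, with 17.1% for H3K9me3. All 8 active targets met in 0.619% of tiles, and in 24.1% of the 39812 tiles with H3K4me3. None of the 11 targets was called in both lists in 65.9% of tiles, so the absence of calls at ALB and INS is what most of the genome shows. No p-value was computed: each target has 2 lists, the peaks hold no read counts, and 6 named genes are not replicates of a condition.

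**Figure D1:**
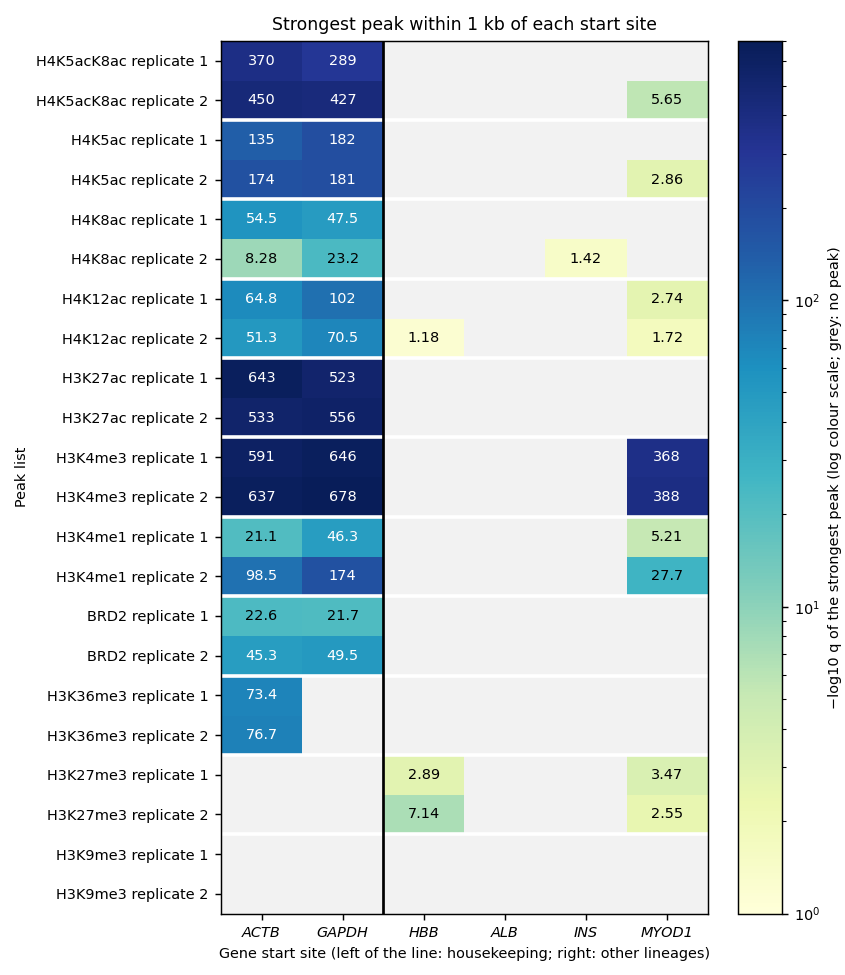
Strongest peak within 1 kb of each start site, as −log10 of the authors' q, for the 22 lists (rows) and the 6 genes (columns); grey means no peak. ACTB and GAPDH are filled for every active target, MYOD1 is filled strongly only for H3K4me3 (368 and 388), and ALB is empty.

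ACTB and GAPDH had the same call for 10 of the 11 targets and differed in H3K36me3. ALB and INS had the same call for all 11. HBB had the same call as ALB and as INS for 10. MYOD1 had the same call as HBB for 8, as ALB and INS for 7, as GAPDH for 5 and as ACTB for 4. A target called at neither gene counts here as the same call. Among ALB, INS and HBB all of the agreement was such shared absence, and MYOD1 and HBB shared only H3K27me3 as a called target. Since 65.9% of tiles had none of the 11 targets called in both lists, agreement by absence is common in the genome.

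Acetylation at the housekeeping start sites was among the strongest in the lists. The values that follow are the authors' fold enrichment over local background and −log10 q, and they describe a peak only within its own list. For H4K5acK8ac, the ACTB peak had a fold of 75.0 in replicate 1 and 59.6 in replicate 2, ranks 28 and 40 by −log10 q among 75854 and 71837 peaks. The GAPDH peak had a fold of 52.5 and 46.4, ranks 138 and 66. These ranks are at most 0.182% of the way down the list.

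For H4K5ac, which marks the single lysine, ACTB had folds of 21.6 and 30.0 with ranks 74 and 16. GAPDH had folds of 27.3 and 25.4 with ranks 9 and 14. For H4K12ac, GAPDH had folds of 16.4 and 15.8 with ranks 7 and 34, and ACTB had folds of 12.3 and 14.5 with ranks 118 and 154. GAPDH ranked above ACTB in both lists of both marks, by margins that the 2 lists cannot test.

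At ACTB, H4K8ac had the largest ratio between replicates of the 5 acetylation marks. Its fold was 12.9 in replicate 1 and 5.25 in replicate 2, with a −log10 q of 54.5 and 8.28. At GAPDH the fold was 9.96 and 8.92 with a −log10 q of 47.5 and 23.2. The second H4K8ac list was weaker as a whole, with 6838 peaks at a −log10 q of at least 5 against 37399 in the first. In it GAPDH still ranked 35 among 116852 peaks and ACTB ranked 1973.

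For H3K27ac, a mark of active promoters and enhancers, ACTB had folds of 82.8 and 43.2 and GAPDH had folds of 50.6 and 48.2. The ACTB peak ranked 7 in replicate 1 and 871 in replicate 2, while GAPDH ranked 549 and 575. The order of the genes in this mark thus differed between replicates.

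H3K4me3 peaks at the housekeeping genes were long rather than extreme in significance. At ACTB they spanned 8234 and 8085 bp with folds of 69.4 and 67.5, and at GAPDH 7076 and 6907 bp with folds of 53.2 and 60.4. By width the ACTB peaks ranked 66 and 71 and the GAPDH peaks 130 and 133, among 21580 and 22025 peaks. By −log10 q they ranked only 9099 and 8549 for ACTB and 7586 and 7186 for GAPDH, between 32.6% and 42.2% of the way down the list. The H3K27ac peaks were longer still, with 10590 and 11551 bp at ACTB and 12958 and 15176 bp at GAPDH.

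BRD2 lay beside the start of both genes. At ACTB the strongest BRD2 peak had a fold of 10.4 in replicate 1 and 16.8 in replicate 2, and at GAPDH the folds were 8.58 and 17.8. The strongest peaks ended 51 and 57 bp upstream of the ACTB start and 32 and 7 bp upstream of the GAPDH start. A second BRD2 peak began 455 and 103 bp downstream of the GAPDH start, with a −log10 q of 5.98 and 26.4. In neither list did a BRD2 peak cover the start base itself of either gene. H4K8ac also left a gap at the GAPDH start, with peaks ending 78 and 87 bp upstream and resuming 90 and 307 bp downstream.

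The strongest summits of acetylation and BRD2 lay on the upstream side. Across the 5 acetylation marks and BRD2, the summit of the strongest peak in the window was upstream of the start in 24 of 24 combinations of gene and list, at 241 to 697 bp. These combinations come from ACTB and GAPDH alone and are not independent. Some downstream peaks were nearly as strong: H4K8ac at GAPDH in replicate 1 had a summit 579 bp downstream with a fold of 8.72, against 9.96 upstream. H3K4me3 summits lay downstream at GAPDH, at 1395 and 1335 bp, whereas at ACTB they lay 1975 bp downstream in replicate 1 and 451 bp upstream in replicate 2.

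H3K4me1 and H3K36me3 framed the housekeeping starts without covering them. At ACTB, H3K4me1 ended 561 and 546 bp upstream with folds of 8.47 and 13.7, and at GAPDH the main H3K4me1 peaks ended 646 and 651 bp upstream with folds of 11.8 and 17.7. H3K4me1 also lay downstream, from 3093 and 3104 bp at ACTB with folds of 9.63 and 11.9. Downstream of GAPDH its peaks included one from 3591 bp in replicate 1 (fold 9.11) and one from 2441 bp in replicate 2 (fold 6.92). H3K36me3 at ACTB began 832 and 949 bp downstream with folds of 19.2 and 20.5, so the call rested on the outer edge of the window. At GAPDH the downstream H3K36me3 peaks began 1009 and 1068 bp from the start, just outside the window, with folds of 10.4 and 9.97. The difference in H3K36me3 between ACTB and GAPDH is therefore one of position at the 1 kb limit. A second H3K36me3 block, 37856 and 37943 bp long, ended 1622 and 1449 bp upstream of GAPDH, on the side where the gene table lists NCAPD2.

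**Figure D2:**
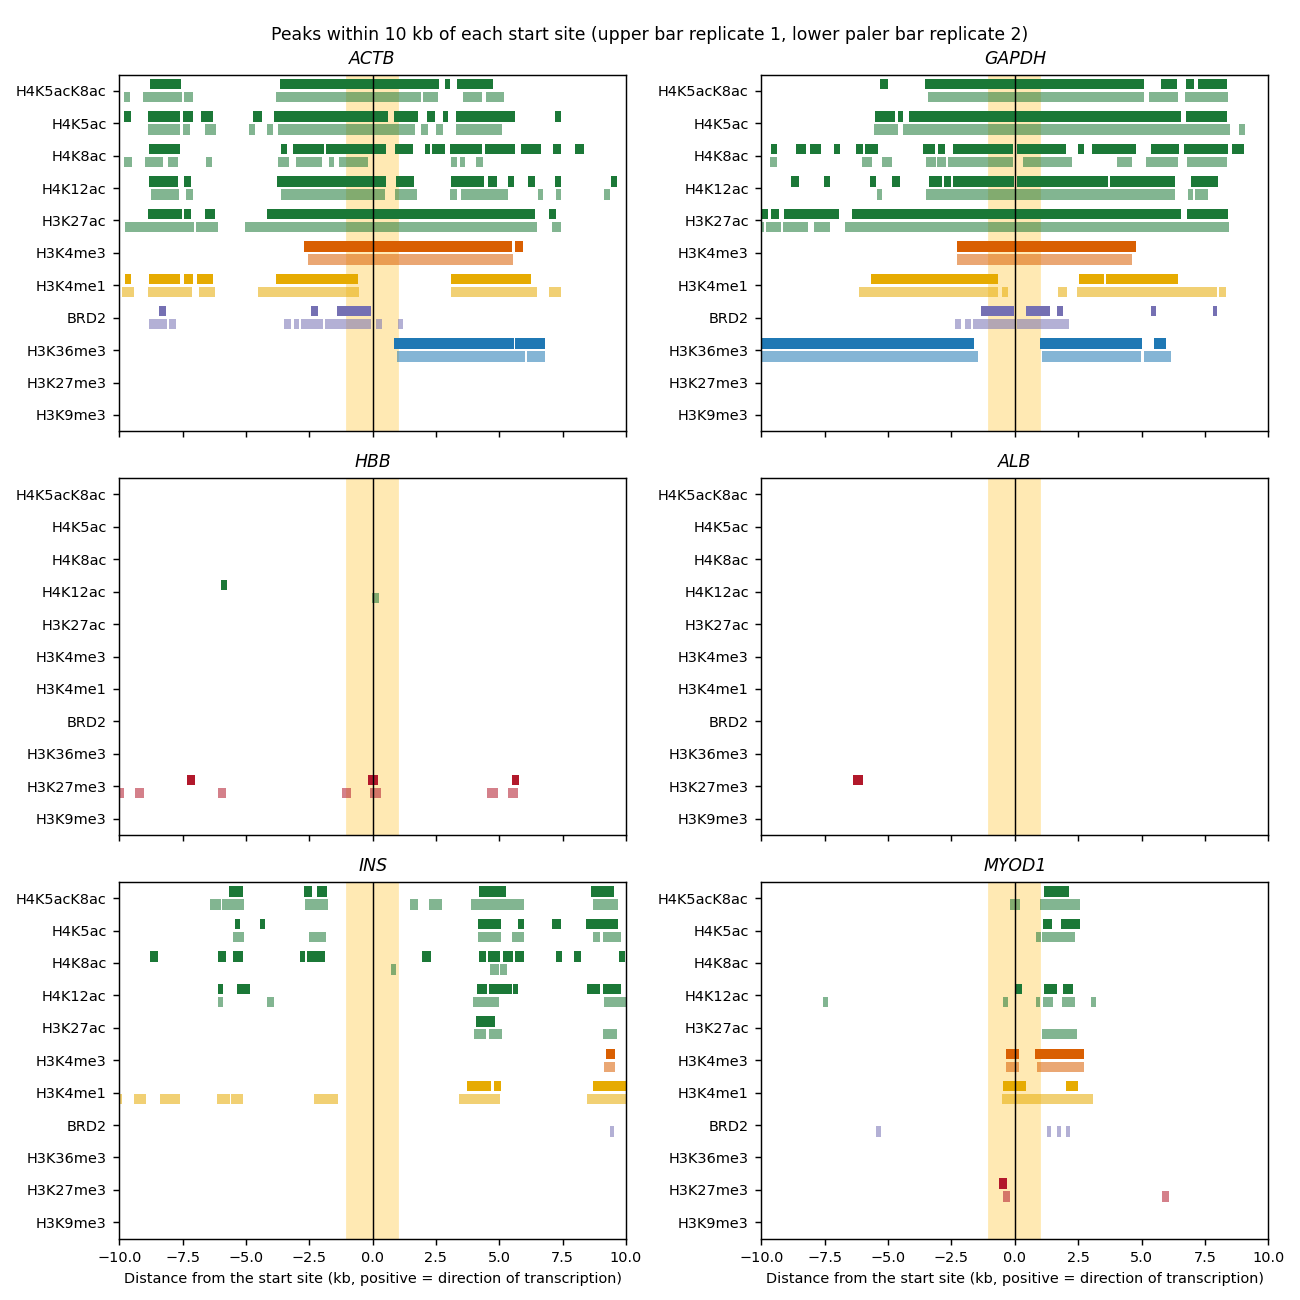
Peaks within 10 kb of each start site (x axis, kb, positive in the direction of transcription) for the 11 targets; the upper bar of each row is replicate 1 and the paler lower bar replicate 2, and shading marks the 1 kb window. Acetylation runs across the ACTB and GAPDH windows with H3K36me3 from about 1 kb downstream, while the HBB and ALB panels hold almost nothing but short H3K27me3 peaks.

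MYOD1 was the other-lineage gene with the most marks. H3K4me3 had a pair of peaks near its start in each list. The first covered the start itself, at chr11:17740764-17741257 in replicate 1 and chr11:17740768-17741256 in replicate 2, and was weak, with folds of 5.10 and 4.10 and a −log10 q of 9.37 and 5.16. The second lay in the gene's direction from 809 and 889 bp to 2720 and 2712 bp, with folds of 58.6 and 63.5 and a −log10 q of 368 and 388. It reached into the window by its edge alone. By −log10 q these strong peaks ranked 12522 and 12539, in the middle of their lists and below both housekeeping genes. By fold they were above GAPDH (53.2 and 60.4) and below ACTB (69.4 and 67.5) in both lists.

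H3K27me3 at MYOD1 lay just upstream of the start, at chr11:17740467-17740803 in replicate 1 and chr11:17740658-17740925 in replicate 2. Its fold was 3.73 and 3.30 and its −log10 q 3.47 and 2.55, ranks 79851 and 149727 among 213028 and 277462 peaks. The peaks of the replicates shared 146 bp. Both overlapped the weak H3K4me3 peak over the start, by 36 to 162 bp over the 4 combinations of lists, and neither overlapped the strong one. Genome wide, 2996 tiles held H3K27me3 and H3K4me3 in both lists, which is 1.99% of the H3K27me3 tiles and 7.53% of the H3K4me3 tiles. Whether both marks sat on the same molecules at MYOD1 cannot be told from separate lists.

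H3K4me1 covered the MYOD1 start, from 460 bp upstream to 450 bp downstream in replicate 1 and from 521 bp upstream to 3082 bp downstream in replicate 2. The folds were 4.59 and 8.44. This differed from ACTB and GAPDH, where the start was free of the mark in both lists.

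Within 1 kb of the MYOD1 start, acetylation peaks were weak, with a −log10 q of at most 5.65. H4K12ac counted as called in both lists, but its peak in replicate 1 (fold 3.28, −log10 q 2.74) lay 61 to 295 bp downstream and those of replicate 2 (folds 3.11 and 2.80) lay elsewhere in the window, so the replicates shared 0 bp. H4K5acK8ac covered the start in replicate 2 (−log10 q 5.65) and had no peak within 1 kb in replicate 1. H4K5ac likewise had a peak in the window in replicate 2 alone, from 816 to 1026 bp downstream with a −log10 q of 2.86.

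Just beyond the window, in the direction of transcription, 3 acetylation marks had overlapping peaks in both lists. H4K5acK8ac ran from 1164 to 2143 bp with a fold of 4.06 and a −log10 q of 3.55 in replicate 1, and from 1004 to 2555 bp with a fold of 10.6 and a −log10 q of 30.9 in replicate 2. The second of these began just outside the window. H4K5ac was of like strength in both lists there. Replicate 1 had peaks from 1101 to 1469 bp and from 1835 to 2563 bp with folds of 4.11 and 4.93, and replicate 2 had a peak from 1086 to 2357 bp with a fold of 4.78. H4K12ac was weaker, from 1167 to 1653 bp with a fold of 3.51 in replicate 1 and from 1102 to 1496 bp with a fold of 2.49 in replicate 2.

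H3K27ac and BRD2 differed between the lists at the same place. For H3K27ac, replicate 2 had a peak from 1090 to 2452 bp with a fold of 7.92 and a −log10 q of 22.9, whereas in replicate 1 the nearest peak was 229.9 kb away. BRD2 had 3 weak peaks between 1257 and 2187 bp in replicate 2, with folds of 3.28, 3.67 and 4.24, and none within 35.1 kb in replicate 1. The nearest of the 3 had a −log10 q of 1.16, which is a q above 0.05. The first BRD2 list was weaker as a whole, with 4771 peaks at a −log10 q of at least 5 against 12491 in the second. H3K36me3 was absent in both lists, with the nearest peaks at 148.1 and 147.9 kb.

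HBB carried short H3K27me3 peaks over its start. They lay at chr11:5248094-5248472 in replicate 1 and chr11:5247971-5248421 in replicate 2 and shared 328 bp. The fold was 3.44 and 5.41 and the −log10 q 2.89 and 7.14, ranks 109666 and 15437 by −log10 q. The peak was thus ordinary for its list in replicate 1 and in the top 5.56% in replicate 2. Its only other call was a weak H4K12ac peak in replicate 2, with a fold of 2.80 and a −log10 q of 1.18, which is a q above 0.05.

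Around HBB, H3K27me3 peaks were many and short: 15 peaks covered 7.64% of the bases within 50 kb in replicate 1, and 35 peaks covered 16.1% in replicate 2, against 4.11% and 4.85% of the genome. Among all tiles of 100 kb, 17.5% and 10.2% were covered as much. The strongest of these peaks had a −log10 q of only 6.04 and 7.14. H3K9me3 covered 0.936% and 1.44%, below the genome's 4.04% and 5.55%. H3K27ac, H3K4me3, H4K5acK8ac, H4K5ac and H3K36me3 had no peak within 50 kb of HBB in either list. The nearest H3K27ac peaks were 368.9 and 368.6 kb upstream.

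ALB had no peak of any target within 1 kb in any of the 22 lists. The same holds for 45.2% of the genome's tiles. The nearest peak of all was a weak H3K27me3 peak 5.98 kb upstream in replicate 1 (fold 2.87, −log10 q 1.86), and in replicate 2 the nearest H3K27me3 peak was 25.3 kb downstream. The nearest H3K9me3 peaks were 43.6 and 33.6 kb away. H3K27ac, H3K4me3, H3K4me1, H3K36me3, BRD2 and H4K5acK8ac had no peak within 50 kb in either list, and H3K4me3 was nearest at 143.8 kb in both lists. H3K27me3 covered 3.10% and 5.47% of the bases within 50 kb, near the genome's share, and H3K9me3 covered at most 1.60%, below it.

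**Figure D3:**
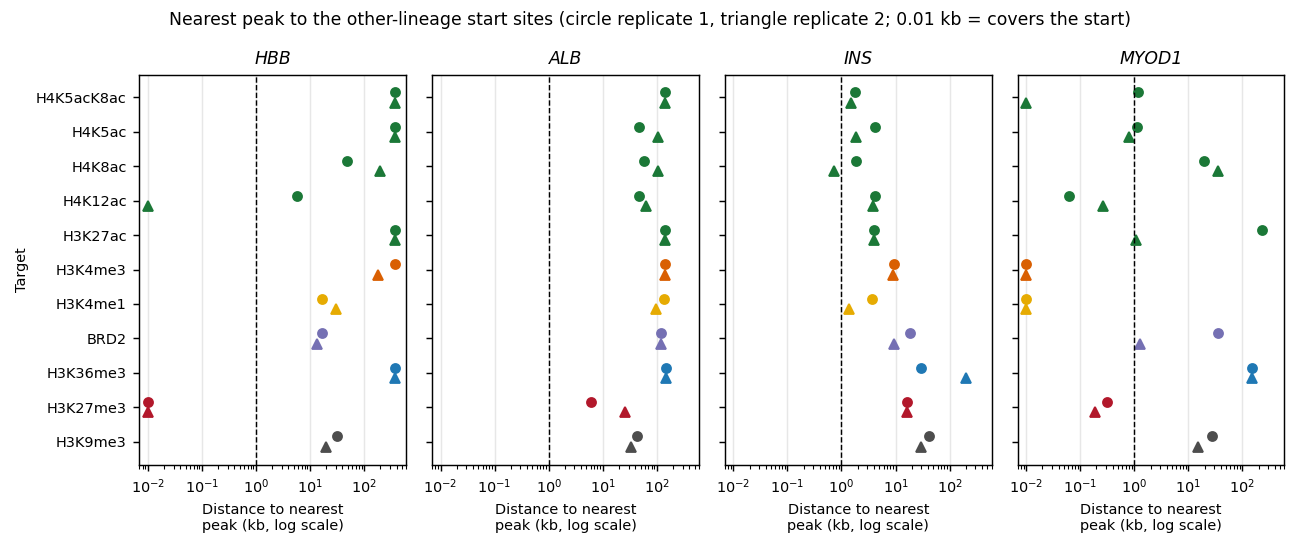
Distance from the HBB, ALB, INS and MYOD1 start sites to the nearest peak of each target (x axis, kb, log scale; points at 0.01 kb cover the start; circles replicate 1, triangles replicate 2; dashed line 1 kb). Active marks and BRD2 are at least 46.3 kb from ALB and, apart from H4K12ac, at least 13.6 kb from HBB, but 6 of them are within 5 kb of INS in both lists. The shares of tiles given in the text are for 1 kb on each side, not 5 kb.

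INS also lacked called targets at its start, but in different surroundings. Its only peak within 1 kb was H4K8ac in replicate 2, with a fold of 3.16 and a −log10 q of 1.42. Acetylated regions stood on both sides at a few kb. Downstream, H4K5acK8ac had peaks from 4179 and 3887 bp with folds of 15.0 and 23.2, and H4K5ac from 4163 and 4161 bp with folds of 13.4 and 10.6. H3K27ac began 4069 and 3992 bp downstream with folds of 7.07 and 4.67, and H3K4me1 3733 and 3417 bp downstream with folds of 5.90 and 7.04. Upstream, weaker H4K5acK8ac peaks began 1813 and 1745 bp away with folds of 4.47 and 4.94. Replicate 2 also had weak peaks near the start that replicate 1 lacked. Among them were H4K5acK8ac from 1474 and 2233 bp downstream (fold 2.96 for each) and H3K4me1 from 1355 bp upstream (fold 3.43). H3K4me3 was nearest at 9.20 and 9.13 kb downstream, on the side where the gene table lists INS-IGF2 and IGF2.

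Repressive marks were farther from INS than acetylation was. H3K27me3 was nearest at 16.5 and 16.0 kb and H3K9me3 at 42.5 and 29.2 kb. Within 50 kb, H3K27me3 covered 3.53% and 2.07% of the bases and H3K9me3 2.71% and 3.04%, all below the genome's share in the same list. H3K27ac covered 9.66% and 14.2%, against 3.16% and 3.53% of the genome, and 9.64% and 6.62% of all 100 kb tiles were covered as much. ALB and INS had identical calls at the start but differed in this respect: around ALB the share covered by H3K27ac was 0 in both lists.

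**Figure D4:**
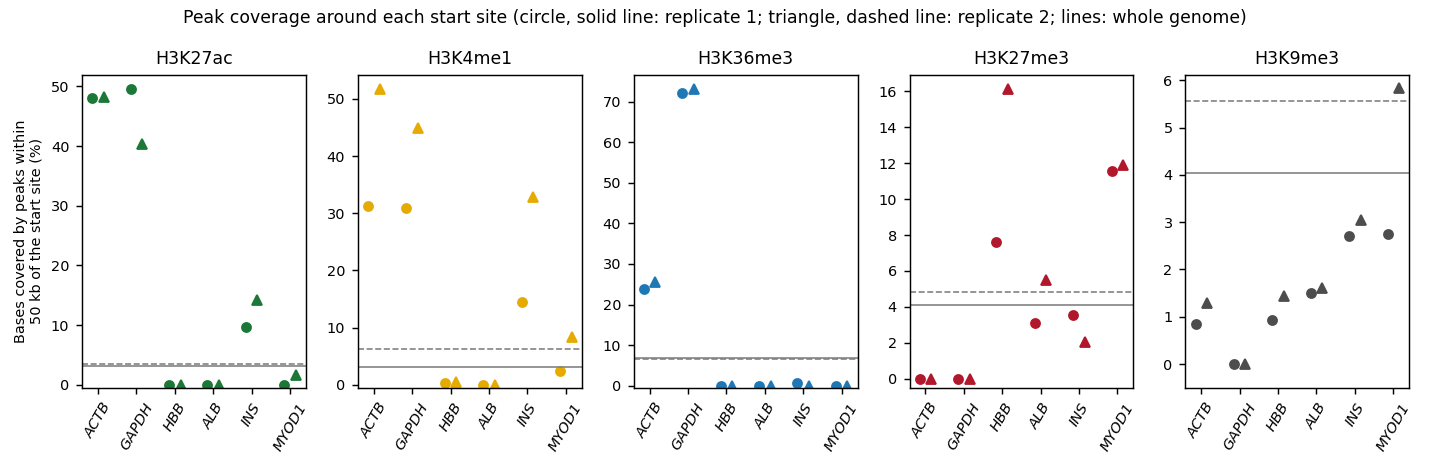
Share of bases within 50 kb of each start site covered by peaks of 5 marks (y axis, %; circles replicate 1, triangles replicate 2; grey lines, the share of the whole genome in each list). H3K27me3 is above the genome at HBB and MYOD1 in both lists, and H3K27ac is above it at ACTB, GAPDH and INS.

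The surroundings of MYOD1 and the housekeeping genes differed in the same measures. H3K27me3 covered 11.5% and 11.9% of the bases within 50 kb of MYOD1, the highest of the 6 genes in replicate 1 and second to HBB in replicate 2. Among all tiles of 100 kb, 11.9% and 14.1% were covered as much. H3K9me3 covered 2.75% and 5.83% around MYOD1, against 4.04% and 5.55% of the genome, so below it in replicate 1 and slightly above it in replicate 2. Its nearest peaks were 27.7 and 15.0 kb upstream of MYOD1. H3K27me3 covered 0% around ACTB and GAPDH, where the nearest peaks were 97.1 kb or more away. H3K27ac covered 48.1% and 48.2% around ACTB and 49.5% and 40.3% around GAPDH. H3K36me3 covered 23.8% and 25.5% around ACTB and 72.0% and 73.1% around GAPDH, and at most 0.628% around the other-lineage genes. These neighbourhoods hold other genes too.

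The H3K27me3 calls at HBB and MYOD1 rested on weak peaks in at least 1 list. At a −log10 q of at least 5, which 2.06% of tiles pass for H3K27me3 in both lists, neither HBB nor MYOD1 kept its H3K27me3 call, although the HBB peak of replicate 2 passed it alone, whereas ACTB and GAPDH kept all 16 of their active calls. At that threshold MYOD1 kept H3K4me3 and H3K4me1. With 2 of 4 other-lineage genes called for H3K27me3 against 9.74% of tiles, the count is too small to read as a property of such genes.

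**Figure D5:**
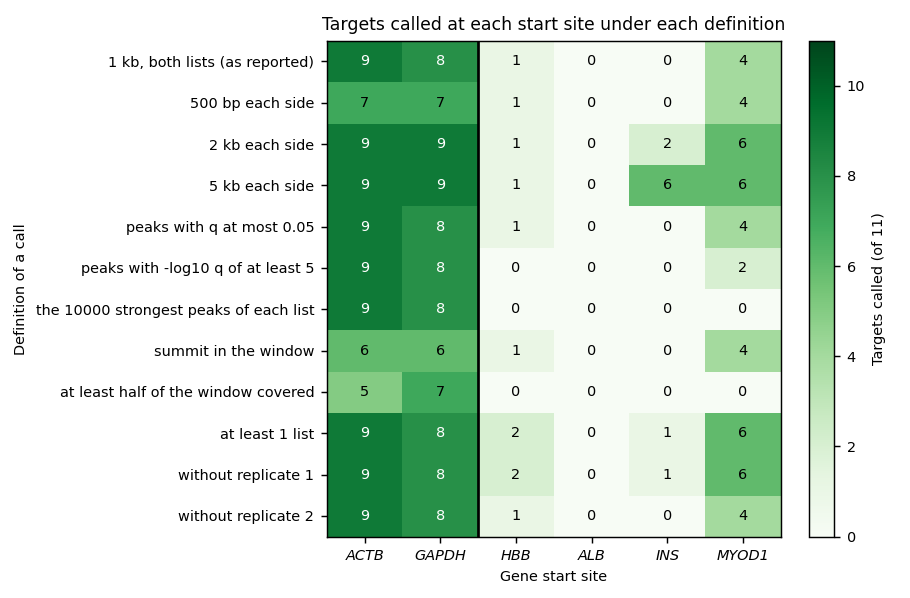
Number of the 11 targets called at each start site (columns) under each definition of a call (rows; the first is the one reported). ACTB stays between 5 and 9, GAPDH between 6 and 9 and ALB at 0, while INS rises from 0 to 6 as the window widens to 5 kb. Wider windows meet more peaks by construction.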

How the data were processed

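Peak lists of 22 ChIP-seq libraries of NCI-H23 cells were used as deposited, 1 list per library; groups and replicate numbers came from the sample titles, which were followed where the description of the second H3K9me3 library carried another replicate number. Per the submitters' processing notes the tools were BWA and MACS2 and the build hg19; versions, control, settings and pooling are not given in the sources used here. The deposited fold enrichment is the authors' ratio of a peak to local background, and the deposited significance is −log10 p and −log10 q. The deposited score, the whole part of 10 times −log10 p, was not used. The lowest −log10 p was 2.00 to 2.11 in every list, so weak peaks are included. The lists held 21580 to 277462 peaks. They give no read numbers, so depth is unknown and no interval was computed; a deeper library can yield more weak peaks.

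A target was called where a peak of each list shared at least 1 bp with the window of 1 kb on each side of the start site. Tiles of the same length, laid end to end up to the last peak of each chromosome, gave the background; assembly gaps were not removed. Strands of GAPDH, ALB and INS came from RefSeq, those of ACTB, HBB and MYOD1 from general knowledge. Promoters and gene order came from RefSeq tables of GRCh38.p14 by gene symbol, with no conversion of positions. Python 3.11.15, numpy 2.4.6, pandas 2.3.3 and matplotlib 3.10.9 were used, and the functions were checked on simulated peaks. All 6 members are reported, which was the rule for named genes. The members and measures were chosen with earlier results of these data known. The planned lists of further housekeeping and lineage genes were not analysed here, as no hg19 annotation was used.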

Additional observations from a re-analysis of the deposited data

How the results depend on the processing

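Each count of calls was recomputed under 11 other definitions of a call. Of 110 recomputed counts, 88 were within 1.5 times the reported count and 22 were not. The 88 include the counts at ALB and for H3K9me3, which were 0 throughout. They also include a fall from 9 to 6 at ACTB when the summit had to lie in the window. The 88 of 110 is therefore no measure of robustness. When peaks needed a −log10 q of 5 or more, the count of called targets was 0 at HBB and 2 at MYOD1, and the number of other-lineage genes with H3K27me3 was 0. With the 10000 strongest peaks of each list, HBB and MYOD1 had 0, the other-lineage genes had 0 active calls and 0 had H3K27me3. With at least 50% of the window covered, ACTB had 5, HBB and MYOD1 had 0, the other-lineage genes had 0 active calls and 0 had H3K27me3. These limits remove weak or narrow peaks by construction. The 16 active calls at the housekeeping genes fell to 14 with 500 bp on each side, where H3K4me1 was lost at both. They fell to 12 when the summit had to lie in the window, where H3K4me3 and H3K4me1 were lost at both. With at least 50% of the window covered they were also 12, without H3K4me1 at both and without H4K8ac and BRD2 at ACTB. At INS the count was 2 with 2 kb and 6 with 5 kb on each side, and the active calls at the 4 other-lineage genes were then 7 and 11, against 3 reported. A wider window meets more peaks by construction, and the share of tiles of those lengths is not given here. With a call in at least 1 list, HBB had 2, INS had 1 and the other-lineage genes had 7 active calls. The added calls were H4K12ac at HBB, H4K8ac at INS, and H4K5acK8ac and H4K5ac at MYOD1. A peak in at least 1 list was in 9.26%, 14.8%, 6.54% and 9.76% of tiles for these marks, in the same order.

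Leaving out a replicate, so that the other list alone made the call, gave 1 to 2 targets at HBB, 0 to 1 at INS and 3 to 7 active calls at the other-lineage genes. The higher value came without replicate 1 each time. Counts at ALB and for H3K9me3 were 0 under all alternatives run. Apart from these counts, the median share of tiles called was 5.19%, and it moved under both other backgrounds, to 9.47% once tiles with no peak in any list were left out and to 2.78% when peaks needed a −log10 q of 5 or more. No paired analysis was possible because the results come from counts of calls and no test was made. Unknown depth limits every absence: a missing peak is not evidence that the mark is absent.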

Other observations

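Further from the start sites, H3K4me3 had peaks that both lists shared. Near MYOD1 a second strong H3K4me3 region lay 14774 to 16320 bp downstream in replicate 1 and 14777 to 16134 bp in replicate 2, with folds of 61.1 and 47.1. Its replicate 1 fold was above the 58.6 of the peak in the gene itself and its replicate 2 fold was below the 63.5 there. The gene table lists KCNC1, which encodes a voltage-gated potassium channel, as the next gene on that side, and the region was not assigned to a gene.

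Downstream of INS, H3K4me3 peaks at 19399 to 24847 bp in replicate 1 and 19719 to 24540 bp in replicate 2 had folds of 44.7 and 48.4. Over the same 50 kb on each side, H4K5acK8ac covered 5.66 and 8.61 times the share that it covered in the genome, and among all tiles of 100 kb 3.83% and 1.61% were covered as much.

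The nearest H3K4me3 region to ALB, 143.8 kb upstream, was stronger by fold than those of both housekeeping genes in the same lists, at 105 and 114 against 69.4 and 67.5 for ACTB.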
